A study of Homo sapiens with 18 samples.

Results

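The genes of the cytosolic ribosome were examined for chromatin accessibility in Raji, an established human line of malignant B cells that came from a Burkitt lymphoma. A peak, a called region of open chromatin 501 bp wide, was counted as theirs when the protein-coding autosomal gene that contained its centre, or else the nearest such gene within 50 kb, was RPSA, RPLP0, RPLP1, RPLP2 or an RPL or RPS gene named by a number with an optional A, L, X or L1. By that rule 173 of the 71318 peaks belonged to 69 of 80 such genes. Omni-ATAC-seq, which maps open chromatin by where a transposase can insert sequencing adapters, had been run on cells of low or high GFP level at 24, 48 and 72 h. The 6 groups were GFP low and GFP high cells sampled at each time, with 3 samples per group, all labelled as Raji with the genotype Smarca4+/+ and all from a series on auxin-driven degradation of SMARCA4, an ATPase of the BAF remodelling complex. What GFP reports, which level goes with loss of SMARCA4 and whether samples came from separate cultures are not stated in the labels, and all cells were of 1 line. Averaged over all peaks, the 3 columns of a group differed by nearly the same multiple of counting noise in every pair. They were therefore summed, and each GFP level had 1 library per time and 3 over the times. The 6 libraries held 22908652 to 29790483 counts.

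Cytosolic ribosomal proteins form the small (40S) and large (60S) subunits of the ribosome, which translates nuclear messenger RNAs, and nearly all are needed in equal numbers in every cell. Their genes lie scattered over the chromosomes, have short promoters that are open in most cell types, and share a start site inside a run of pyrimidines. The messages that begin with that run, called terminal oligopyrimidine (TOP) messages, are translated according to nutrient and mTOR signals. In B-cell lymphomas the same genes are a known output of MYC, which in Burkitt lymphoma is driven by an immunoglobulin enhancer.

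The start sites show this shared signature. RefSeq promoter entries on GRCh38.p14, the assembly of hg38, matched 63 of the 80 genes with 77 start sites, since 10 genes had more than 1. A run of at least 5 C or T letters beginning at the start base occurred in 57.1% of those entries, against 4.93% of 22198 entries of protein-coding genes. At least 1 such start was present in 44 of the 63 genes (69.8%), and the longest run had 16 letters. The windows below run from 20 bases before the start base to the first 15 bases of the transcript, and capitals mark the uninterrupted C and T run from the start base. The first 6 belong to the genes with the largest rise in GFP low cells that had an entry, and the last 3 to genes with differences near 0. They lie at chr19:49487588-49487622 (plus strand), chr2:3575240-3575274 (plus), chr17:42998399-42998433 (plus), chr19:41860235-41860269 (plus), chr19:55385912-55385946 (plus), chr3:51995881-51995915 (minus), chr3:101686704-101686738 (minus), chr9:124861943-124861977 (minus) and chr9:127451392-127451426 (minus).
RPL13A: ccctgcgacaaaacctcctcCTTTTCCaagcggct
RPS7: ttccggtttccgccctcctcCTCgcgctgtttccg
RPL27: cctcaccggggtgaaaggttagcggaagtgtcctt
RPS19: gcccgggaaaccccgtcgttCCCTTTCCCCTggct
RPL28: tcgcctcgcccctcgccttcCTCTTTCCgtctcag
RPL29: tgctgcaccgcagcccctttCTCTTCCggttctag
RPL24: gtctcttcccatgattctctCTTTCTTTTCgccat
RPL35: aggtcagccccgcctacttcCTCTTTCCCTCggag
RPL12: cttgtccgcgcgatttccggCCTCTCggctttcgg
The run was long in RPS19 with 11 letters and in RPL28 with 8. It was as long in RPL35 with 11 and RPL24 with 10, whose gene-end peaks differed little between GFP levels. The annotated start of RPS7 carried 3 letters and that of RPL27 carried 0. The gene-end peaks of RPL24, RPL35 and RPL12 were centred 564, 422 and 510 bp after the start. The 9 genes were picked by the size of their differences, so no link of run and difference can be read from them.

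Short promoter letters were then counted on both strands in the 250 bases before and 50 bases after each start. The letters CCGGAA, the core of ETS factor sites, were in 54.5% of the 77 ribosomal protein entries, against 21.2% of protein-coding entries and 17.2% of all 35116 entries. CTCGCGA was in 16.9%, against 3.08% of protein-coding entries, and AAGATGG, which resembles a YY1 site, in 11.7%, against 6.04%. GGGCGG, an SP1 box, was in 51.9%, against 56.3%. TATAAA was in 9.09%, against 9.47%, and CACGTG, an E-box of the kind MYC binds, in 6.49%, against 8.34%. None of these letter strings contains another. A match describes letters and is no evidence that a factor binds there. The 250 bases before the start are shown for RPL13A (chr19:49487358-49487607, plus strand) and RPS7 (chr2:3575010-3575259, plus strand), whose gene-end peaks had the largest rises, with every match to those strings in capitals.
RPL13A: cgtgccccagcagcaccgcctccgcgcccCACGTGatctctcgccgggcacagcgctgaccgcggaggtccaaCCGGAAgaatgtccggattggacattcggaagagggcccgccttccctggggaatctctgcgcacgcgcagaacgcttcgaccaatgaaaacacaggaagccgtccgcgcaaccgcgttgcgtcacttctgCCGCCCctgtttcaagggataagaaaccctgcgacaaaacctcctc
RPS7: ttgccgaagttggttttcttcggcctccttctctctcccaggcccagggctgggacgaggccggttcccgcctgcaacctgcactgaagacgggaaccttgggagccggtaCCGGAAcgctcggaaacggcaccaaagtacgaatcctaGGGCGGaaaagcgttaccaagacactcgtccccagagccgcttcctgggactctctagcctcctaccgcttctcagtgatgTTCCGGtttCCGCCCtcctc
In RPL13A the capitals mark CACGTG from position -221 relative to the start, CCGGAA from -177 and GGGCGG on the other strand from -46. In RPS7 they mark CCGGAA from -139, GGGCGG from -101, CCGGAA on the other strand from -20 and GGGCGG on the other strand from -11.

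Of the 173 peaks, 86 were gene-end peaks, with a centre within 1 kb of either end of their gene, and they covered 68 genes. A further 23 lay inside a gene and 64 outside one. The other 11 genes had no peak by the rule. For RPS27, RPS27A, RPL35A, RPLP2, RPL3L and RPS28, 1 peak each lay within 1 kb of an end. It was given to a neighbouring gene, which contained its centre or had the nearer end. No peak lay within 1 kb of the ends of the other 5, RPS18, RPL7A, RPS25 and RPS9 among them. RPL26L1 had a peak but no gene-end peak. The strongest gene-end peak of each of the 68 genes is called its principal peak here. Mean levels of gene-end peaks ran between 2.83 and 166 CPM (a peak's count scaled to a fixed library total), with a median of 23.4 CPM.

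Accessibility at the ends of ribosomal protein genes was modestly higher in GFP low cells than in GFP high cells, and at none of them was it called lower. Over the 3 times, 37 of the 86 gene-end peaks (43.0%) were higher in GFP low and 0 were lower at an adjusted p under 0.05 (edgeR quasi-likelihood test, Benjamini-Hochberg over all 71318 peaks). Among all 13253 gene-end peaks of protein-coding genes, 34.5% were called higher and 4.09% lower. The share of ribosomal protein ends called higher was thus of the order of that of gene ends in general. The median log2 difference, GFP low minus GFP high, was 0.22 for the ribosomal protein gene-end peaks, with the middle 50% of them between 0.13 and 0.30, against 0.18 for all gene-end peaks and 0.03 for all peaks. No ribosomal protein peak differed by 2-fold, and the largest rise was 1.44-fold. The summed level of the 86 peaks was 3319, 2990 and 3150 CPM in GFP low at the 3 times, against 2556, 2772 and 2658 CPM in GFP high. For that sum every GFP low library was above every GFP high library, and the same held for the sum over all gene-end peaks. As a share of the latter, the 86 peaks made up 0.737, 0.690 and 0.703% in GFP low. In GFP high they made up 0.675, 0.695 and 0.675%, so the shares overlapped. Peak by peak, all GFP low libraries lay above all GFP high libraries in 36 of the 86 (41.9%), against 43.3% of all gene-end peaks, and below them in 1. More cells with an open site and more cutting per cell cannot be told apart in such bulk libraries.

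**Figure D1:**
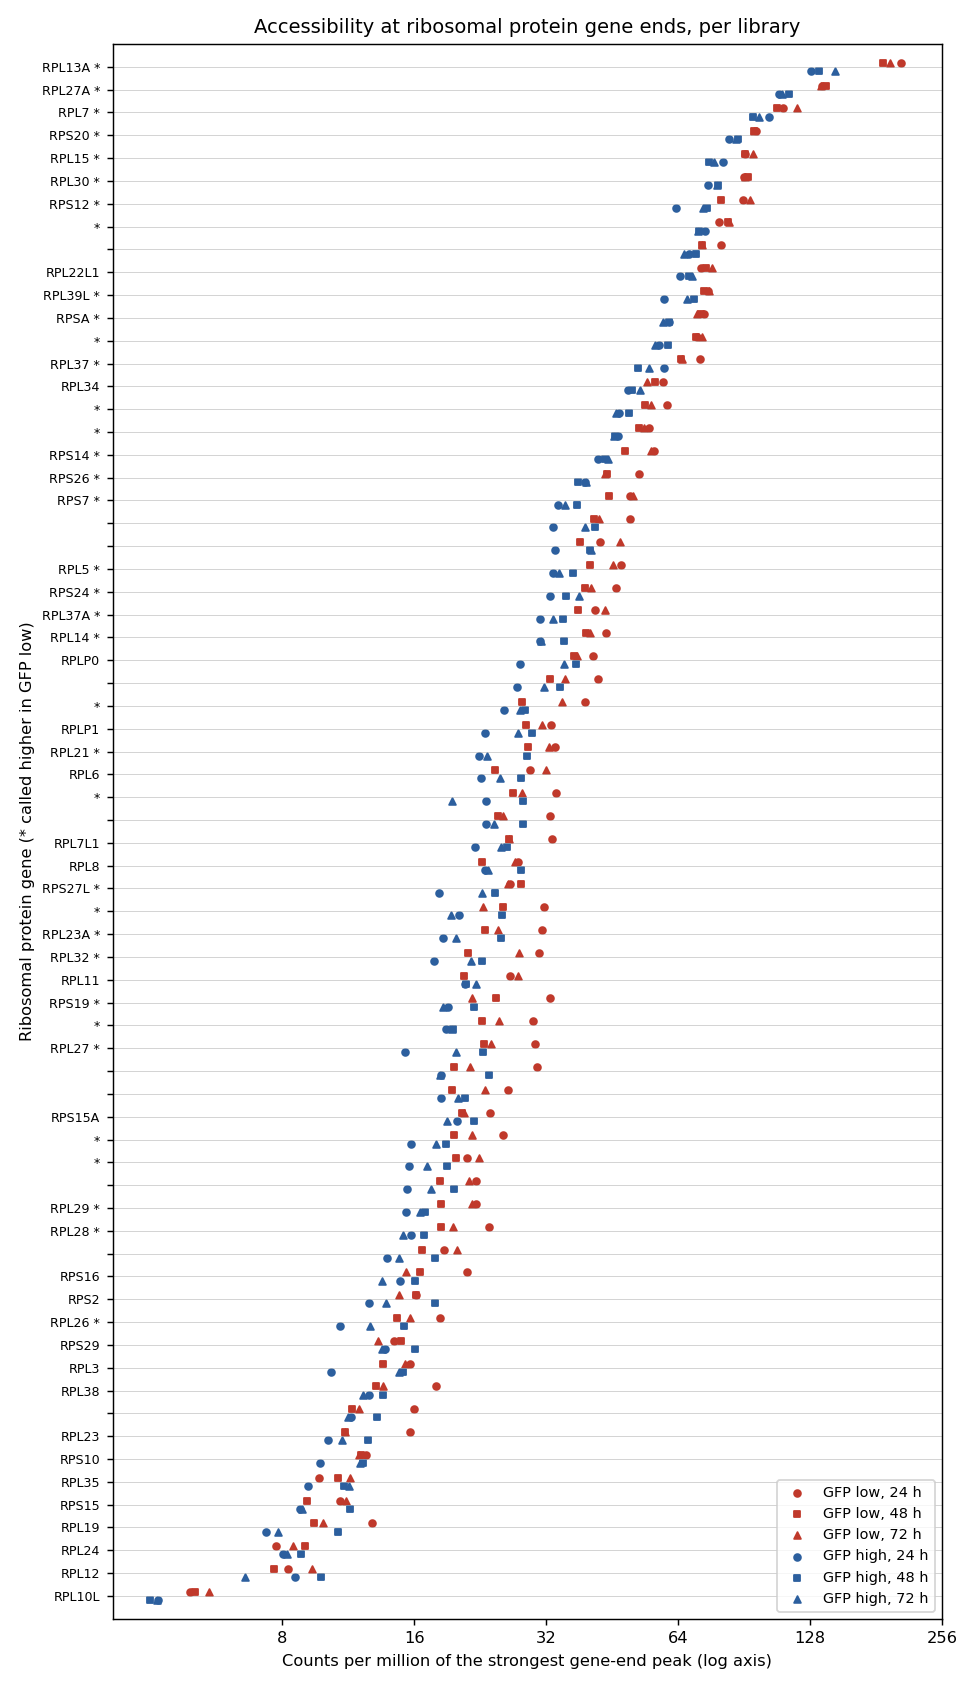
Level of the principal peak of 68 ribosomal protein genes in each of the 6 libraries, in CPM on a log axis, with GFP low in red above GFP high in blue and marker shapes for 24, 48 and 72 h. Genes are ordered by mean level, those described by name are labelled, and a star marks a rise in GFP low at an adjusted p under 0.05; the level runs up to 207 CPM in RPL13A and the 2 colours separate most clearly in the upper rows.

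Several settings change how many of these rises are called. Without the 24 h pair of libraries 24 of the 86 gene-end peaks were called higher. Without the 48 h pair 53 were, and without the 72 h pair 7. DESeq2 called 20. Over all peaks 9570 were called higher as fitted. That count was 9240, 8667 and 2503 without the 24, 48 and 72 h pairs, and 3721 in DESeq2. Calls were thus lost over all peaks too without the 72 h pair and in DESeq2, but hardly without the 24 h pair. For these settings the matching shares of all gene-end peaks were not counted. With a loess scaling, which removes any trend of the difference with abundance, 18 of the 86 were called higher (20.9%) and 0 lower. Of all gene-end peaks 10% were called higher under that scaling. The median log2 difference of the 86 was 0.14, against 0.09 for all gene-end peaks. Of the 86 differences 80 (93.0%) were positive as fitted and 74 (86.0%) under the loess scaling, against 82.3% and 75.3% of all gene-end peaks.

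RPL13A, a large-subunit protein that is also part of an interferon-driven complex that silences translation of some messages, had the strongest and most changed principal peak (chr19:49487053-49487553, centred 305 bp before the annotated start). Its levels were 207, 188 and 194 CPM in GFP low at 24, 48 and 72 h, against 129, 134 and 146 CPM in GFP high. All 3 GFP low values lay above all 3 GFP high values. The log2 difference was 0.53 ± 0.05 (SE; adjusted p = 5.63e-08, edgeR). Under the loess scaling it was 0.25 (adjusted p = 0.00054).

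RPS7, a small-subunit protein mutated in some patients with Diamond-Blackfan anaemia, an inherited failure of red cell production, came next (chr2:3574974-3575474, centred 36 bp before the start). It had 49.8, 44.5 and 50.6 CPM in GFP low, against 34.1, 37.7 and 35.3 CPM in GFP high, again without overlap. The log2 difference was 0.43 ± 0.08 (SE; adjusted p = 0.00026, edgeR), and 0.30 under the loess scaling (adjusted p = 0.0046). RPL13A and RPS7 were the 2 of the 37 that stayed called under each scaling, in DESeq2, and without any 1 time or any 1 set of columns.

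RPL27, of the large subunit, had 30.2, 23.0 and 24.0 CPM in GFP low, against 15.3, 22.9 and 19.9 CPM in GFP high (log2 difference 0.41 ± 0.13, SE; adjusted p = 0.018, edgeR). The 24 h libraries stood apart there while the 48 h libraries were level, and without the 24 h pair the adjusted p was 0.26. RPS19, a small-subunit protein whose gene is the one most often mutated in Diamond-Blackfan anaemia, had 32.7, 24.5 and 21.6 CPM in GFP low, against 19.1, 21.9 and 18.6 CPM in GFP high. The lowest GFP low library lay below the highest GFP high library (log2 difference 0.38 ± 0.12, SE; adjusted p = 0.013, edgeR), and without the 24 h pair the adjusted p was 0.12.

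Other large principal rises were those of RPL28, RPL5 and RPL29. RPL28, a large-subunit protein that budding yeast lacks, averaged 20.6 ± 2.79 CPM in GFP low and 15.9 ± 0.868 CPM in GFP high (SD, n = 3 libraries each; log2 difference 0.37). RPL5, which with RPL11 binds MDM2 when ribosome assembly fails, averaged 44.4 ± 3.69 CPM in GFP low and 34.8 ± 1.85 CPM in GFP high (log2 difference 0.35), at an end it shares with DIPK1A. RPL29 averaged 20.7 ± 2.00 CPM in GFP low and 16.2 ± 0.836 CPM in GFP high (log2 difference 0.35). All 3 were called higher (adjusted p = 0.014, 0.0029 and 0.018 in that order, edgeR), and none stayed called without the 72 h pair (adjusted p = 0.13, 0.082 and 0.18).

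At the other end of the range, 8 principal peaks had differences within 0.10 of 0 and were not called. RPS29, a zinc-binding small-subunit protein, averaged 14.2 ± 0.894 CPM in GFP low and 14.5 ± 1.42 CPM in GFP high (SD, n = 3 libraries each) and was the 1 principal peak with a negative value, at -0.03. The others were RPL24 at 0.01, RPL35 at 0.01, RPL12 at 0.02, RPL8 at 0.05, RPS2 at 0.09, RPS15A at 0.09 and RPS15 at 0.10. The principal peaks of RPS29, RPL24, RPL35 and RPL12 were centred 422 to 963 bp inside the transcript rather than at the annotated start, and those of RPL35 and RPL12 also lay within 1 kb of an end of ARPC5L and LRSAM1.

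The rise was seen in both subunits. Of 24 principal peaks of small-subunit genes 15 were called higher, with a median log2 difference of 0.25, and of 44 of large-subunit genes 21 were, with a median of 0.23. Under the loess scaling 4 and 13 were called. Of the 6 strongest principal peaks, RPL13A is described above, and RPL27A averaged 137 ± 1.84 CPM in GFP low and 111 ± 2.85 CPM in GFP high (log2 difference 0.30; adjusted p = 3.83e-05, edgeR), and under the loess scaling its difference was 0.05. That peak is 6087 bp downstream of the annotated start, near the other end of the gene. RPL7, at an end shared with RDH10, and RPS20, RPL15 and RPL30 had log2 differences of 0.19, 0.16, 0.24 and 0.24, all called higher, and values of -0.04, -0.06, 0.03 and 0.02 under the loess scaling. For RPL7 and RPS20 the sign therefore turned with the scaling.

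**Figure D2:**
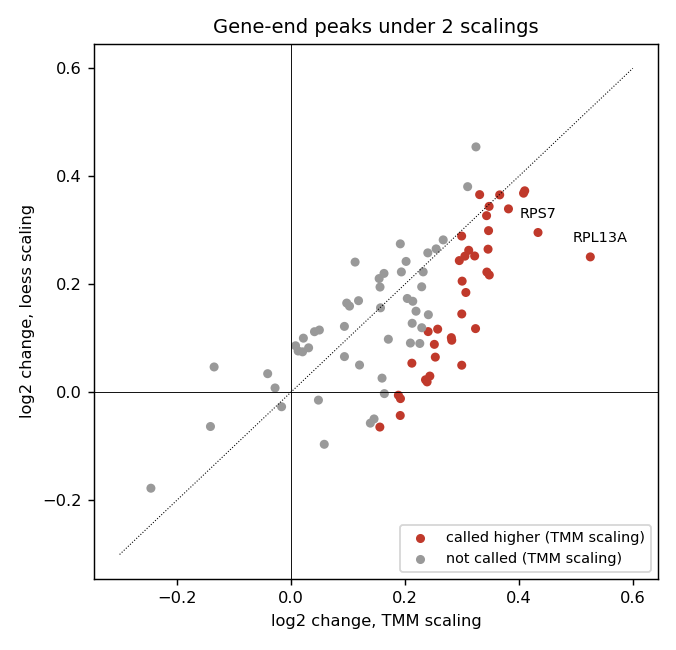
Log2 difference, GFP low minus GFP high, of the 86 gene-end peaks of ribosomal protein genes under the TMM scaling used for the test (x axis) and under a loess scaling (y axis), with the called peaks in red and a dotted line of equality. RPL13A moves to 0.25 on the y axis and most called peaks fall below the line, while 74 of the 86 stay above 0.

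The P-stalk recruits elongation factors to the ribosome. The principal peak of its base protein RPLP0 had 40.9, 37.1 and 37.7 CPM in GFP low, against 27.9, 37.5 and 35.1 CPM in GFP high, so the groups overlapped (log2 difference 0.21, adjusted p = 0.089, edgeR). RPLP1 had 32.9, 28.8 and 31.4 CPM in GFP low, against 23.2, 29.7 and 27.6 CPM in GFP high (log2 difference 0.21, adjusted p = 0.11, edgeR). RPLP2 had no peak by the rule. RPSA, a small-subunit protein also known as a laminin receptor, had 73.3, 72.1 and 70.7 CPM in GFP low, against 61.0, 61.0 and 59.3 CPM in GFP high, with a similar gap at each time (log2 difference 0.25, adjusted p = 0.0024, edgeR).

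Of the 10 Diamond-Blackfan anaemia genes listed, 2 had no peak, RPL35A among them, and 5 of the other 8 principal peaks were called higher (62.5%), with a median log2 difference of 0.25, beside 52.9% and 0.24 for the principal peaks of all 68 genes. The called ones were RPS7, RPL5 and RPS19, given above, with RPS26 and RPS24. RPS26 averaged 46.6 ± 4.84 CPM in GFP low and 38.8 ± 0.885 CPM in GFP high (log2 difference 0.26, adjusted p = 0.014, edgeR). RPS24 averaged 42.0 ± 3.65 CPM in GFP low and 35.5 ± 2.70 CPM in GFP high (log2 difference 0.24, adjusted p = 0.035, edgeR). RPL11 at 0.21, RPS10 at 0.10 and RPS15A at 0.09 did not pass.

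The 7 genes below are paralogs named with L or L1, some of them used in particular tissues: RPL10L and RPL39L are known from the male germ line. They held 17 peaks over 6 genes, of which 3 were called higher (17.6%) and 4 lower (23.5%), against 13.4% and 25.4% of all peaks in the table, and RPL3L had none by the rule. At the principal peak, RPS27L averaged 26.9 ± 1.05 CPM in GFP low and 21.9 ± 3.25 CPM in GFP high (log2 difference 0.31), and RPL39L averaged 74.4 ± 0.946 CPM in GFP low and 65.4 ± 5.32 CPM in GFP high (log2 difference 0.19). Both were called higher (adjusted p = 0.025 and 0.022, edgeR), and RPL39L had -0.01 under the loess scaling. RPL26L1 had 1 peak, 414 bp after its annotated start but inside its gene span, and it too was called higher (log2 difference 0.26, adjusted p = 0.012, edgeR). RPL22L1 at 0.15, RPL7L1 at 0.22 and RPL10L at 0.32 did not pass. RPL10L was the weakest principal peak at 4.62 CPM, and it passed under the loess scaling (0.45, adjusted p = 0.031).

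Calls followed peak strength, in ribosomal protein genes as in others. Of the 43 gene-end peaks above the median level 29 were called higher, and of the 43 below it 8 were. All peaks in the table were split into 10 deciles by mean CPM. In decile 10, the strongest, 22 of 30 ribosomal protein gene-end peaks (73.3%) were called higher, against 70.5% of all 4739 gene-end peaks there. In decile 9, 12 of 24 (50%) were called, against 27.2% of 3072, and in decile 8, 3 of 12 (25%), against 11.6% of 1870. In deciles 6 and 7, 0 of 7 and 0 of 10 were called, against 5.24% and 6.62%. The differences in share were not tested. Separation of the libraries ran the other way in deciles 9 and 8 but not in decile 10. All GFP low libraries lay above all GFP high libraries at 29.2% of the ribosomal protein gene-end peaks in decile 9. For all gene-end peaks there the share was 42.6%. In decile 8 it was 16.7%, against 22.6%, and in decile 10 it was 83.3%, against 76.2%. Gene-end peaks centred within 1 kb of an annotated start were called higher in 26 of 54 cases (median log2 difference 0.24), and gene-end peaks farther from a start in 1 of 12 (median 0.10). The farther peaks were also weaker, with a median level of 11.2 CPM against 24.0 CPM. Gene-end peaks of genes with no promoter entry were called in 10 of 20 (median 0.19). All gene-end peaks, of which 34.5% were called higher, were not split in this way. The 12 farther peaks include the principal peak of RPL6, which lay 49 bp from a gene end but at -7442 bp from its listed start.

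**Figure D3:**
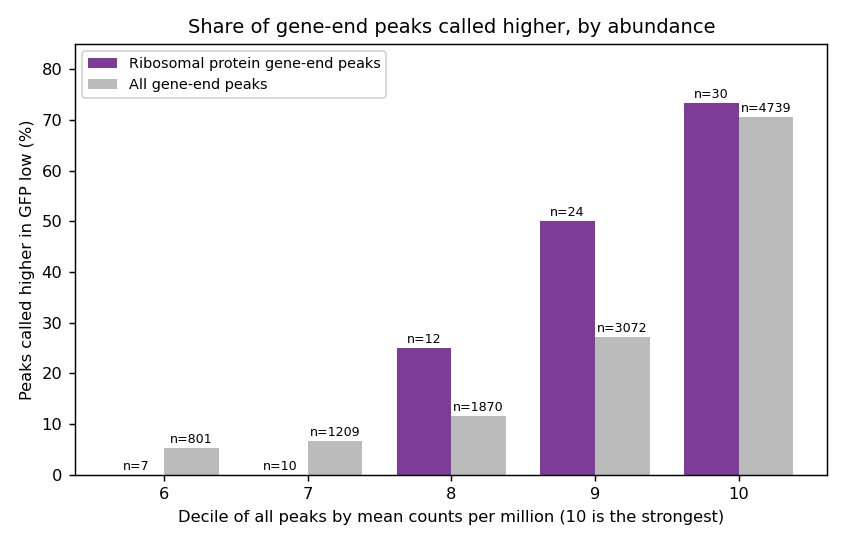
Percent of gene-end peaks called higher in GFP low, by decile of all peaks ranked on mean CPM (10 is the strongest), with ribosomal protein genes in purple left of all protein-coding gene ends in grey and the number of peaks above each bar. The purple bar reaches 73.3% in decile 10 beside 70.5% for all gene ends, and 50% beside 27.2% in decile 9.

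Principal peaks were called both with and without a pyrimidine run at the start site. With a run of at least 5 at the start nearest the peak 19 of 34 were called higher, with a median log2 difference of 0.25, and with a shorter run 8 of 19, with a median of 0.24. Of principal peaks with CCGGAA in the promoter 17 of 31 were called higher (median 0.28), and of those without it 10 of 22 (median 0.23). For CTCGCGA the counts were 5 of 10 with it and 22 of 43 without it. No test was run on these small groups.

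The contrast between GFP levels was not the same at each time. It was largest at 24 h, near 0 at 48 h and intermediate at 72 h. The median log2 difference over the 86 gene-end peaks came to 0.41, 0.00 and 0.23 in that order of times, against 0.25, 0.08 and 0.17 for all gene-end peaks. With 1 library per GFP level and time there is no test at a single time, and 95% counting intervals are given. They cover counting error only, after the counting variance was multiplied by 1.80 to match the spread between columns, averaged over all peaks. The interval lay above 0 for 67 peaks at 24 h (77.9%), for 21 at 48 h (24.4%) and for 45 at 72 h (52.3%), against 56.3%, 28.4% and 43.8% of all gene-end peaks. It lay below 0 for 0, 6 and 2 of the 86. In 41 peaks (47.7%) the difference was positive at all 3 times, against 54.0% of all gene-end peaks. Under the loess scaling the counts above 0 were 52, 6 and 31. The times rest on the D numbers of the column headers: had the V numbers been the times, the counts would be 45, 48 and 43, with no drop in the middle. For the loess scaling and for V numbers as times, the matching shares of all gene-end peaks were not counted.

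**Figure D4:**
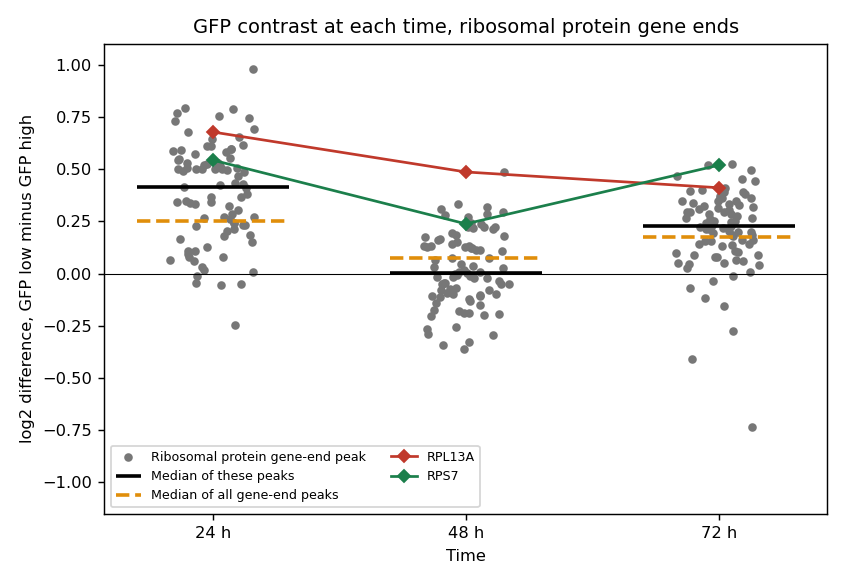
Log2 difference, GFP low minus GFP high, of the 86 ribosomal protein gene-end peaks at 24, 48 and 72 h (grey points), with their median in black, the median of all 13253 gene-end peaks in dashed orange, and RPL13A in red and RPS7 in green. The black median is 0.41, 0.00 and 0.23 while the orange one is 0.25, 0.08 and 0.17, and RPL13A and RPS7 stay above 0 throughout.

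The drop at 48 h came with a move of both GFP levels. The median log2 change of the 86 peaks from 24 to 48 h was -0.20 in GFP low and 0.17 in GFP high, beside -0.08 and 0.09 for all gene-end peaks. That from 24 to 72 h was -0.09 in GFP low and 0.07 in GFP high, beside -0.02 and 0.07 for all gene-end peaks. The pattern was strongest in abundance decile 9, where the median difference was 0.54, -0.06 and 0.27 at the 3 times for 24 ribosomal protein gene-end peaks, against 0.32, 0.06 and 0.19 for all gene-end peaks of that decile. There 95.8% of the ribosomal protein peaks had an interval above 0 at 24 h, against 67.2% of all gene-end peaks, and 8.33% had one at 48 h, against 18.9%. In decile 10 the medians were 0.33, 0.16 and 0.24, against 0.27, 0.17 and 0.22. Under the loess scaling the medians over the 86 were 0.33, 0.02 and 0.13, against 0.14, 0.04 and 0.08 for all gene-end peaks.

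RPL27 had the largest difference at 24 h, 0.98 (interval 0.74 to 1.22), with 0.01 at 48 h and 0.27 at 72 h. RPL19 had 0.80, -0.18 and 0.34 at the same times, and RPL32 had 0.79, -0.11 and 0.36. RPL26 and RPL23A followed the same course, with 0.76 and 0.74 at 24 h and -0.05 and -0.12 at 48 h. Other peaks, given as examples without a rule that divides the peaks, were level over time. RPSA had 0.26, 0.24 and 0.25 at the 3 times, RPL27A had 0.32, 0.28 and 0.29, and RPL37 had 0.27, 0.32 and 0.25. RPL13A stayed above 0 but fell over the times, with 0.68 (interval 0.59 to 0.76), 0.49 (0.41 to 0.57) and 0.41 (0.33 to 0.49). The level peaks were among the stronger ones, at 66.2 CPM in RPSA and 124 CPM in RPL27A on average, against 22.5 CPM in RPL27.

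Between 24 and 72 h the 4 largest falls of the contrast among ribosomal protein peaks were at a peak 47.9 kb from RPL34 (-0.88, interval -1.51 to -0.25), a weak second gene-end peak of RPL23 (-0.83, -1.66 to 0.01), the principal peak of RPL27 (-0.71, -1.04 to -0.38) and a peak 4.44 kb from RPS16 (-0.66, -1.16 to -0.17). The 4 largest rises were 22.3 kb from RPSA (0.84, 0.20 to 1.48), 35.1 kb from RPL10L (0.73, -0.01 to 1.47), 14.01 kb from RPS14 (0.73, 0.22 to 1.24) and 17.4 kb from RPL34 (0.67, -0.13 to 1.47). All 4 rises were away from gene ends.

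Away from gene ends the picture was different. Of the 87 such peaks, in 40 genes, 8 were called higher (9.20%) and 14 lower (16.1%), against 8.80% and 29.2% of all 46282 such peaks with a gene. The difference between these shares was not tested. Over all 173 peaks 45 were called higher (26.0%) and 14 lower (8.09%), against 13.4% and 25.4% of all peaks in the table. The median log2 difference of the 87 was 0.04, against -0.04 for all peaks away from gene ends. Over 10 kb from the gene 2 of 35 were called higher and 8 lower, with a median of -0.10 (5.71% and 22.9%, against 8.16% and 31.9% of all such peaks over 10 kb away, median -0.08). Within 10 kb 6 of 52 were called in each direction (11.5%, against 10.2% higher and 23.3% lower of all such peaks). Of the 87 peaks 52 lay within 10 kb, against 14562 of the 46282. Assignment to the nearest gene does not say that a distant peak acts on it.

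**Figure D5:**
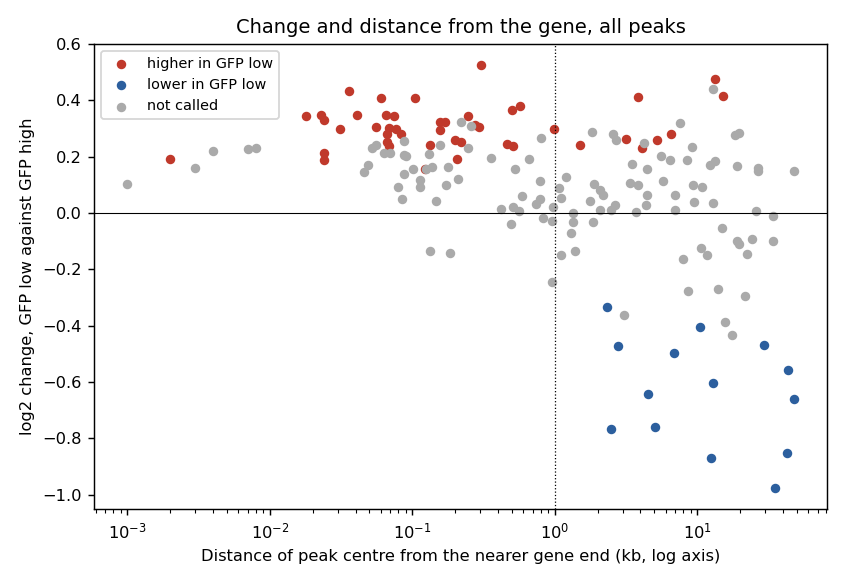
Log2 difference, GFP low minus GFP high, of 173 ribosomal protein gene peaks against the distance of the peak centre from the nearer gene end in kb (log axis), in red where called higher in GFP low, in blue where called lower and in grey where not called; the dotted line marks 1 kb. All 14 blue points lie beyond 1 kb and 37 of the 45 red points lie within it.

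The largest fall was at chr14:46686635-46687135, 35.1 kb from RPL10L, with 3.07, 2.60 and 2.75 CPM in GFP low, against 8.17, 4.54 and 4.38 CPM in GFP high (log2 difference -0.98 ± 0.19, SE; adjusted p = 0.00026, edgeR). The GFP low values lay below all GFP high values, and the gap was widest at 24 h. A peak 12.4 kb from RPLP1 (chr15:69468366-69468866) had 4.21, 2.88 and 3.67 CPM in GFP low, against 7.18, 6.0 and 6.35 CPM in GFP high (log2 difference -0.87). A peak 43.0 kb from RPL11 (chr1:23648486-23648986) had 4.57, 7.11 and 9.88 CPM in GFP low, against 8.99, 14.98 and 14.4 CPM in GFP high (log2 difference -0.85). A neighbouring peak 43.8 kb from RPL11 had -0.56. At the first of these RPL11 peaks GFP low was below GFP high at each time, and both were lowest at 24 h.

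Inside genes the strongest fall was in RPL22L1 (chr3:170867130-170867630), 2815 bp after the start, with 8.27, 8.43 and 9.75 CPM in GFP low, against 16.3, 14.5 and 14.2 CPM in GFP high (log2 difference -0.77, adjusted p = 3.62e-05, edgeR), while the principal peak of the same gene had 0.15. RPL39L showed the same arrangement, with -0.64 inside the gene and 0.19 at the principal peak, and so did RPS20, with -0.47 inside the gene and 0.16 at the principal peak. The principal peak of RPL22L1 was not called (adjusted p = 0.055, edgeR). Under the loess scaling the principal peaks of RPL22L1, RPL39L and RPS20 had -0.05, -0.01 and -0.06, so the rises were lost. The falls inside these genes stayed, at -0.71, -0.55 and -0.42 in that order. Other called falls were 5.05 kb from RPS27L (-0.76), 47.9 kb from RPS12 (-0.66), 12.9 kb from RPS14 (-0.61) and 29.3 kb from RPL21 (-0.47). Called falls were also found near RPL37A (-0.50), RPS29 (-0.41) and RPL3 (-0.33). The falls near RPL37A, RPS29 and RPL3 were not called by DESeq2 (adjusted p = 0.16, 0.19 and 0.18).

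Rises away from the ends were smaller. The strongest such peak was 4.09 kb before RPL14, with 102, 103 and 98.2 CPM in GFP low, against 88.3, 84.1 and 85.6 CPM in GFP high (log2 difference 0.23, adjusted p = 0.0018, edgeR), and its loess-scaled difference was 0.01. The principal peak of RPL14 had 0.34. A peak 3.84 kb inside RPS29, whose principal peak had -0.03, had 17.9, 14.2 and 16.9 CPM in GFP low, against 13.9, 11.8 and 11.05 CPM in GFP high (log2 difference 0.41, adjusted p = 0.0074, edgeR). Others were near RPL38 (0.47), RPL37A (0.42), RPLP1 (0.28) and RPS12 (0.26) and in RPL27A (0.24) and RPL26L1.

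Other genes of translation had similar values at their ends, of the order of those of gene ends in general. For all gene-end peaks, 34.5% were called higher and 4.09% lower, with a median log2 difference of 0.18. Mitochondrial ribosomal protein genes serve the separate ribosome of mitochondria and lack the TOP signature. Of their 87 gene-end peaks 39 were called higher (44.8%) and 0 lower, with a median log2 difference of 0.22. Under the loess scaling 11 were higher (12.6%), against 10% of all gene-end peaks. Of 50 peaks of initiation factor genes 19 were higher (38%) and 1 lower (median 0.19). Of 49 of ribosome biogenesis genes 22 were higher (44.9%) and 0 lower (median 0.19). Of 14 peaks of other TOP or ribosomal fusion genes 8 were higher (57.1%) and 0 lower (median 0.23). Of 6 of elongation factor genes 3 were higher (50%) and 0 lower (median 0.16). Over time, the medians of the mitochondrial set were 0.30, 0.12 and 0.20 at 24, 48 and 72 h. Those of initiation factor genes were 0.35, 0.00 and 0.20, and those of all gene-end peaks 0.25, 0.08 and 0.17. The difference of these lists from the cytosolic ribosomal protein genes, or from all gene-end peaks, was not tested.

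Examples come from the smallest p in each list. MRPS30 of the mitochondrial small subunit averaged 77.7 ± 1.56 CPM in GFP low and 62.7 ± 1.75 CPM in GFP high (SD, n = 3 libraries each; log2 difference 0.31). EIF3F, a subunit of initiation factor eIF3, had 0.28, and NCL, the nucleolar protein nucleolin, had 0.32. NPM1, a nucleolar chaperone with a TOP message, averaged 81.7 ± 4.21 CPM in GFP low and 65.0 ± 4.85 CPM in GFP high (log2 difference 0.33). EEF1A1, which brings aminoacyl-tRNA to the ribosome and has a TOP message, averaged 275 ± 11.1 CPM in GFP low and 236 ± 4.44 CPM in GFP high (log2 difference 0.22). All 5 were called higher (edgeR), and none of them passed under the loess scaling, where EEF1A1 had -0.09.

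The labelled cell line was checked at gene ends. Of 9 B-cell marker genes 7 had a gene-end peak, with a summed level of 227 CPM in GFP low and 215 CPM in GFP high, including MS4A1, which encodes CD20, at 79.0 CPM in GFP low and 79.0 CPM in GFP high. MS4A1 was the strongest of the B-cell list, whose levels began at 11.8 CPM in GFP low. Of 6 T-cell markers 4 had one (60.8 CPM in GFP low and 76.1 CPM in GFP high), of 4 myeloid markers 1 (5.87 and 5.42 CPM in that order), and of 4 epithelial and stromal markers 2 (22.4 and 20.8 CPM). The T-cell marker CD3E, at 37.5 CPM in GFP low and 38.7 CPM in GFP high, was above most of the B-cell markers. The sums cover unequal numbers of genes, and single levels did not separate the B-cell list from the T-cell list. The part of any other cells in the ribosomal protein results was not tested.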

How the data were processed

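Omni-ATAC-seq of 18 Raji samples was analysed. The authors deposited raw read counts per peak, 1 table with 71318 peaks of 501 bp and 18 columns of 7106939 to 11171849 counts. FastQC, BWA, deepTools, R 4.2.1 and hg38 are named per the submitters' processing notes. Their roles, the peak caller, and the handling of duplicates, multiply mapped reads and transposase offset were not given in the sources used here. Retained duplicates would raise counting noise, and reads shared with pseudogenes could be dropped or split.

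Column headers give a GFP level, a V number and a D number. The D numbers, in rising order, were taken to be 24, 48 and 72 h, which the headers do not state. Averaged over all peaks, columns of a group differed by 1.78 to 1.81 times counting variance in all 18 pairs, so they were summed to 6 libraries. Whether that multiple is the same for weak and strong peaks was not examined. Nothing says that libraries were separate cultures, so p-values rest on the spread of the GFP contrast over times, which may be technical. With 2 residual and a median of 22.6 prior degrees of freedom, that spread is mostly estimated over all peaks. A peak whose own contrast varies widely over the times can therefore still be called.

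Counts were fitted with edgeR 4.0.16 in R 4.3.3 (TMM, robust quasi-likelihood, time plus GFP level, 2 residual and a median of 22.6 prior degrees of freedom, biological coefficient of variation 9.48%), with Benjamini-Hochberg adjustment over all peaks at 0.05. The filter on low counts removed 0 peaks. The script was tested on simulated counts. Differences at 1 time used log2 CPM with a prior count of 2. Peaks were assigned with a RefSeq gene table on GRCh38 without 105 readthrough genes, which gave 59535 peaks a gene. Exons and UTRs were not separated. RPL36AL and X-linked genes are outside the rule. Alternatives were DESeq2 1.42.0, other scalings, filters, distances, times and columns left out, unsummed columns and the V number as block or as time.

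The members, lists and the rule for named peaks were chosen with earlier results of these data known. Named peaks were the 8 largest principal differences each way, up to 10 called falls, the 6 strongest principal peaks, Diamond-Blackfan, RPSA and stalk genes, paralogs, and the 4 largest changes of the contrast each way between 24 and 72 h. Other genes named were chosen after their values were seen. Values of some single genes are not reported here, but all genes enter the counts.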

Additional observations from a re-analysis of the deposited data

Results flagged for a closer look

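At 4 peaks of the ribosomal protein genes described by name the GFP contrast pointed in opposite directions at a pair of times, each with a counting interval that left out 0. The gap between the highest and the lowest log2 difference, GFP low minus GFP high, was not tested, since each GFP level had 1 library per time. It was 0.86 at the principal peak of RPL12, with 0.50 at 72 h and -0.36 at 48 h. At RPL6 it was 0.77 at a peak inside the gene, with 0.47 at 24 h and -0.30 at 48 h, and 0.56 at the principal peak, with 0.36 at 24 h and -0.20 at 48 h. At the principal peak of RPL8 it was 0.54, with 0.24 at 24 h and -0.30 at 48 h. At all 4 the lowest value was that of 48 h, the time at which the median over all 86 gene-end peaks was 0.00.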

How the results depend on the processing

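Counts of calls moved more than directions. Of the 173 ribosomal protein peaks 45 were called higher, and leaving out 1 time pair gave 8 to 62. For gene-end peaks (37) that range was 7 to 53, and for all peaks in the table (9570 higher) it was 2503 to 9240; the lowest value in each range came without the 72 h pair. DESeq2 gave 24, 20 and 3721 in the same order. The loess scaling gave 27, 18 and 9452, so the count over all peaks hardly moved while those of the ribosomal protein genes fell. With the 18 columns as libraries 79, 59 and 19287 were called, and with a replicate block by V number 79, 59 and 19080. V numbers did not pair columns (correlation of deviations -0.0047 to 0.017 for the same number and -0.014 to 0.010 for others), and that fit concerns differences between columns. With V numbers read as time, 79, 59 and 18464 were called higher and 22 ribosomal protein peaks lower, against 14. An assignment limit of 10 kb left 6 called lower. At 48 h, 21 gene-end peaks had an interval above 0, against 6 with the loess scaling and 48 with V numbers read as time. The cause of these moves was not tested. The median log2 difference of gene-end peaks was positive under all settings run. Filters and the DESeq2 size factors moved no count by over 1.5 times.

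Log2 differences (GFP low minus GFP high) changed sign as follows, at the principal peak unless a distance from the gene end is given. Under the loess scaling they include strong peaks called higher, those of RPL7, RPS20 and RPL39L. With library totals they were RPL24 -0.014, RPL39L (peak at 25.8 kb) -0.015, RPL35 -0.0093 and RPL12 -0.0001. With the loess scaling they were RPL22L1 -0.049, RPL39L (peak at 19.7 kb) 0.047, RPL39L -0.0052, RPS20 -0.064, RPL7 -0.043, RPL8 -0.014, RPS29 0.0083 and RPL23 (peak at 0.133 kb) 0.047. With V numbers read as time they were RPL39L (peak at 25.8 kb) -0.037, RPL35 -0.0041 and RPL12 -0.0015. Without the V0 columns they were RPL24 -0.15 and RPS10 -0.024, without V1 RPL39L (peak at 25.8 kb) -0.074 and RPS29 0.046, and without V2 RPL39L (peak at 25.8 kb) -0.029 and RPL35 -0.042. Leaving out 1 time pair gave ranges across 0 for RPSA (peak at 22.3 kb) -0.42 to 0.24, RPL24 -0.01 to 0.050, RPL22L1 (peak at 0.147 kb) -0.032 to 0.16, RPL39L (peak at 19.7 kb) -0.27 to 0.0027, RPL39L (peak at 25.8 kb) -0.10 to 0.13, RPL34 (peak at 47.9 kb) -0.065 to 0.36, RPL7L1 (peak at 0.528 kb) -0.050 to 0.34, RPL8 -0.037 to 0.22, RPL35 -0.0057 to 0.044, RPL12 -0.21 to 0.23, RPS29 -0.059 to 0.014, RPS2 -0.017 to 0.22, RPL23 (peak at 0.133 kb) -0.33 to 0.20, RPS15 -0.017 to 0.32 and RPS16 (peak at 4.44 kb) -0.093 to 0.35. Depth limits the weakest peaks most, such as the second RPL23 gene-end peak at 2.83 CPM.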
